A study of Mus musculus with 8 samples.

Results

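Neutrophil granule and receptor genes were measured in 4 adenocarcinomas of the mouse stomach and in 4 samples of normal stomach mucosa. The set was named by gene symbol and held 10 genes: S100a8, S100a9, Ltf, Camp, Ngp, Mpo, Cxcr2, Csf3r, Fpr1 and Fpr2. Of these, 9 were found among the 21626 genes tested, each with 1 probe set (a group of array probes read as 1 value). No probe set matched Fpr2 by symbol, older symbol or accession, and Fpr2 is not analysed here. The adenocarcinomas arose spontaneously in mice that carried a transgene, per the series' design text. The labels name neither the transgene nor the promoter that drives it, and give no allele, strain or age, nor do they say whether the normal samples carried it too. The values are log2 expression values from Affymetrix arrays, so a difference of 1 is a 2-fold change, and all differences are adenocarcinoma minus normal mucosa with the SE of the fitted model.

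Neutrophils are short-lived white blood cells that leave the blood for inflamed tissue and kill microbes with stored proteins. The stores are filled in the bone marrow in a fixed order: primary granules (Mpo) form first, specific granules (Ltf, Camp, Ngp) follow, and mature cells carry large amounts of the cytosolic calcium-binding pair S100a8 and S100a9. Receptors for chemokines (Cxcr2), for the growth factor G-CSF (Csf3r) and for formylated bacterial peptides (Fpr1, Fpr2) then steer and sustain the mature cell. Granule messages are made mainly in immature cells of the marrow, whereas receptor messages persist in neutrophils in tissue.

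The median over all tested genes was 8.4 to 8.45 on the adenocarcinoma arrays and 8.2 to 8.3 on the normal arrays. Background control probes had medians of 6.0 to 6.2 on the adenocarcinoma arrays, against 6.2 to 6.4 on the normal ones. Exon minus intron controls, a measure of array quality, gave 3.9 to 4.5 in the tumours, against 3.6 to 4.0 in the normal samples. The female-specific RNA Xist lay between 6.2 and 6.6 in the tumours, against 11.6 to 12.7 in the normal samples, and the Y-linked Eif2s3y between 9.2 and 11 in the tumours, against 5.1 to 5.3 in the normal samples. Sex and tissue therefore cannot be told apart in any difference given here. The labels do not say whether the samples came from separate animals, so p-values measure only the spread between these samples.

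Of the 9 measured members, 6 rose in the adenocarcinomas (66.7%; 18.2% of all genes rose), 2 fell (22.2%; 23.6% of all genes fell) and 1, Ngp, was not called, at an adjusted p under 0.05 in limma; 41.8% of all genes were called in either direction. All 6 rises were at least 2-fold, against 6.63% of all genes that rose by as much. The members that rose were the calcium-binding pair S100a8 and S100a9, the iron-binding granule protein Ltf and all 3 measured receptors, Cxcr2, Csf3r and Fpr1. The members that fell, by small amounts, were the granule genes Camp and Mpo. The median difference over the 9 members was 1.30, against -0.10 over all genes. The groups did not overlap for 6 of the 9 members, against 34.3% of all genes. In whole tissue, more cells of a type and more RNA per cell cannot be told apart.

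**Figure D1:**
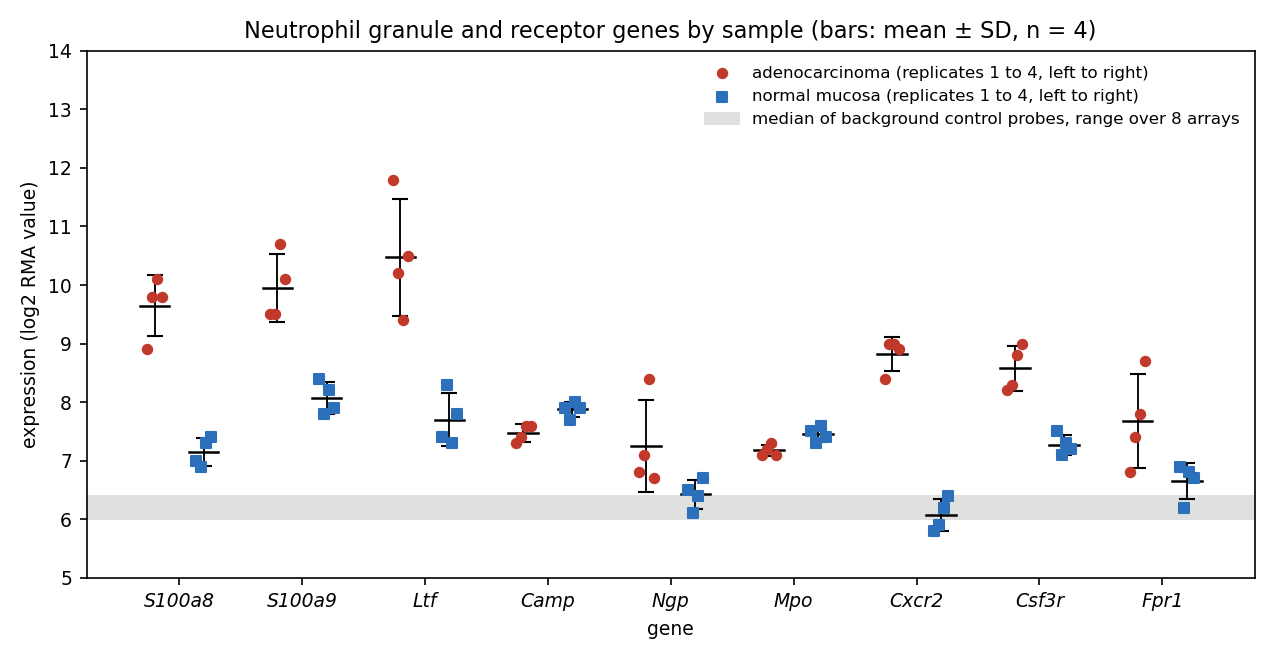
Log2 RMA expression of the 9 measured members (x axis) in the 4 adenocarcinomas (red circles) and 4 normal mucosa samples (blue squares), with mean and SD as black bars and the range of the 8 arrays' median background control probes in grey. The adenocarcinoma and normal points do not overlap for S100a8, S100a9, Ltf, Camp, Cxcr2 and Csf3r, and normal Cxcr2 values lie from 5.8 to 6.4, in or below the grey band.

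S100a8 and S100a9 encode the partners of calprotectin, a calcium- and zinc-binding complex that is released by neutrophils and monocytes and starves microbes of metal. S100a8 (probe set 10493831) was at 8.9, 9.8, 10.1 and 9.8 in adenocarcinoma replicates 1 to 4, and at 7.0, 6.9, 7.3 and 7.4 in normal mucosa replicates 1 to 4. Every adenocarcinoma lay above every normal sample, with replicate 1 the lowest tumour. S100a8 rose by 2.50 ± 0.242 (5.66-fold; limma adjusted p = 9.2e-05), and 1.72% of all genes had a larger absolute difference. Its partner S100a9 (probe set 10499861) was at 9.5, 9.5, 10.7 and 10.1 in adenocarcinoma, against 8.4, 7.8, 8.2 and 7.9 in normal mucosa. The groups were again apart, and replicate 3 was the highest tumour for both genes of the pair. S100a9 rose by 1.88 ± 0.268 (3.67-fold; adjusted p = 0.00082). Both rises were called in all 19 alternatives tried, with adjusted p of at most 0.00179 for S100a8 and 0.00675 for S100a9. In the deposited table, whose genome build is not stated, S100a8 lies on chromosome 3 from 90472993 to 90473956 on the plus strand, and S100a9 close by from 90496554 to 90499613 on the minus strand.

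The 250 bases before the start of 6 members are given here from RefSeq on build GRCm38.p6, 5′ to 3′ on the gene's strand, to set genes that rose (S100a8, S100a9, Cxcr2, Csf3r) beside those that fell (Camp, Mpo). Capitals mark the letters TTGCNNAA, a core of sites for C/EBP factors, and GAGGAA, a core of sites for PU.1, on either strand; both are transcription factors that drive granulocyte genes. All 9 measured members matched the RefSeq table.
S100a8, chr3:90668821-90669070, plus strand: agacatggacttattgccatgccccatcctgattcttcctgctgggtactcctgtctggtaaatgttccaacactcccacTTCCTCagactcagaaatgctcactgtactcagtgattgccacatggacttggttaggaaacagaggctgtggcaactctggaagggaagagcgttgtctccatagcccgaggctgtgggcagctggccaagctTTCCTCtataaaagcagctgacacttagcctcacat
S100a9, chr3:90695722-90695971, minus strand: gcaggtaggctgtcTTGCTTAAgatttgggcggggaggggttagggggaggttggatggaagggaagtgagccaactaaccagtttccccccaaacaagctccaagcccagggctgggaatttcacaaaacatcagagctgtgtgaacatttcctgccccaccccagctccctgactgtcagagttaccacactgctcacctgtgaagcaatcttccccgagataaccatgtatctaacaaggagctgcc
Cxcr2, chr1:74153744-74153993, plus strand: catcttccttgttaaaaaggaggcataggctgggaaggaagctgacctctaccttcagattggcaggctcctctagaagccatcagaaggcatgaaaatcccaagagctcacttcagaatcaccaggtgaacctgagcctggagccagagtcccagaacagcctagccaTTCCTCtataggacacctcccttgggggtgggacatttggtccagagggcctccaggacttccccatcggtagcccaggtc
Csf3r, chr4:126024409-126024658, plus strand: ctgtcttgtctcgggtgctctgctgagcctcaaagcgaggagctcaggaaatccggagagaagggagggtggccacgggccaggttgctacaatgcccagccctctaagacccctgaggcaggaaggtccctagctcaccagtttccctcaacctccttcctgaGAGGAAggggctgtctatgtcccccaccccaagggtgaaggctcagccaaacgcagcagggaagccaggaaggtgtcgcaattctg
Camp, chr9:109849457-109849706, minus strand: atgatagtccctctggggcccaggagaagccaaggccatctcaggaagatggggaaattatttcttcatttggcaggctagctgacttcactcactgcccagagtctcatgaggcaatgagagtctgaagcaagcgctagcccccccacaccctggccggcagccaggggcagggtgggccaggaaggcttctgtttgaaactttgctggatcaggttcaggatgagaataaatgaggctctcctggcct
Mpo, chr11:87793534-87793783, plus strand: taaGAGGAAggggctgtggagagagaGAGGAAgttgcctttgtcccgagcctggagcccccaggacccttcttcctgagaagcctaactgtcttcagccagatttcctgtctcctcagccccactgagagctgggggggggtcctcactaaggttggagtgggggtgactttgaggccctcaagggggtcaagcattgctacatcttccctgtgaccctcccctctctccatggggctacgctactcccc
The C/EBP letters occurred before 3 of the 9 members (S100a9, Ltf and Ngp) and in 9.56% of 32851 promoter windows of this length. The PU.1 letters occurred before 5 of the 9 (S100a8, Ltf, Mpo, Cxcr2 and Csf3r) and in 23.3% of the windows. The match in S100a8 nearest to the gene began at position -36 from its start, that in Cxcr2 at -81 and that in Csf3r at -86. No match lay in the windows of Camp or Fpr1, and no matches of the motifs overlapped in these windows. Mpo and S100a8 each held 2 PU.1 matches. Whether the matches bear on the members' differences was not tested.

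The stefins are cysteine protease inhibitors that mouse neutrophils carry in their cytosol. Of the 6 genes in the list of cytosolic S100 and stefin genes, 4 rose and 1 fell, with a median of 1.48. Stfa2l1 was at 6.5, 6.2, 8.6 and 8.1 in adenocarcinoma, against 5.7, 5.9, 5.9 and 5.4 in normal mucosa, where all 4 arrays were at or below the median background probe. It rose by 1.63 ± 0.493 (adjusted p = 0.028), with 2 high tumours, replicates 3 and 4; the adjusted p lay between 0.0501 and 0.0746 without adenocarcinoma replicate 4 or any 1 of the normal samples. Stfa1, named after its values were seen, followed the same tumours at 6.9, 7.3, 8.8 and 8.0 in adenocarcinoma, against 6.3 to 6.5 in normal mucosa (1.33 ± 0.348; adjusted p = 0.0164). Stfa2 was not called (0.15, adjusted p = 0.425). The gene that fell, Stfa3 (-0.45, adjusted p = 0.00766), was at or below the background median on all 8 arrays.

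Among the specific granule members Ltf rose, while Camp fell slightly and Ngp was not called. Ltf encodes lactoferrin, an iron-binding protein of specific granules that glandular epithelia also secrete. It (probe set 10589703; chromosome 9, 110921796 to 110945270, plus strand) was at 11.8, 10.2, 9.4 and 10.5 in adenocarcinoma and at 7.4, 8.3, 7.3 and 7.8 in normal mucosa. All tumours lay above all normal samples, but replicate 1, the lowest tumour for 7 of the 9 members, was the highest for Ltf, and replicate 3 the lowest. Ltf rose by 2.78 ± 0.450 (6.85-fold; adjusted p = 0.00164), and the rise was called in all 19 alternatives (adjusted p up to 0.0111).

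Camp encodes cathelicidin, the precursor of the antimicrobial peptide CRAMP. It (probe set 10597098; chromosome 9, 109749897 to 109751970, minus strand) was at 7.3, 7.4, 7.6 and 7.6 in adenocarcinoma, against 7.9, 7.7, 8.0 and 7.9 in normal mucosa. The groups were apart by 0.1, the smallest step of the deposited values. Camp fell by 0.40 ± 0.106 (adjusted p = 0.0169), and 32.6% of all genes had a larger absolute difference. Against the intron control probe sets its place did not move: its mean exceeded 78.8% of them in adenocarcinoma and 78.9% in normal mucosa. The adjusted p was 0.13 after the arrays were centred on olfactory and vomeronasal receptor genes, which normal stomach is not known to use, and 0.051 without normal mucosa replicate 3.

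Ngp, the neutrophilic granule protein, belongs to the cathelicidin-like proteins and lies on the same chromosome (probe set 10589535; chromosome 9, 110322344 to 110325516, plus strand). It was at 6.8, 7.1, 8.4 and 6.7 in adenocarcinoma and at 6.5, 6.1, 6.4 and 6.7 in normal mucosa. Replicate 3 stood above the other tumours, and replicate 4 was level with the highest normal sample. The difference was 0.83 ± 0.341 (adjusted p = 0.0784), 1.01 without adenocarcinoma replicate 4 (adjusted p = 0.0477) and 0.44 without adenocarcinoma replicate 3 (adjusted p = 0.0562). After cyclic loess scaling the adjusted p was 0.0444.

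Of the 8 measured specific granule genes, 4 rose and 1, Camp, fell (median 1.95), and 3 to 6 rose when any 1 array was left out. Mmp8, named after its values were seen, rose by 1.55 ± 0.513 (adjusted p = 0.0384). It was at or below background on all 4 normal arrays and on 1 tumour array. Without any 1 normal sample its adjusted p was 0.0711 to 0.0885. Lcn2, a carrier that traps bacterial iron chelators and is also made by epithelia, was at 12.1, 11.4, 12.7 and 12.5 in adenocarcinoma, against 7.5, 7.2, 7.9 and 7.5 in normal mucosa, a rise of 4.65 ± 0.269 (adjusted p = 4.86e-06). The haptoglobin gene Hp, whose protein binds free haemoglobin, was at 9.2, 11.2, 12.2 and 10.1 in adenocarcinoma and at 7.6, 7.5, 7.4 and 7.2 in normal mucosa, a rise of 3.25 ± 0.538 (adjusted p = 0.00183). All tumours lay above all normal samples for both genes, and the calls held in all 19 alternatives. Olfm4, a glycoprotein of a subset of neutrophils and of intestinal crypts, was at 9.1, 8.9, 10.6 and 13.5 in adenocarcinoma, above 8.0 to 8.3 in normal mucosa, but was not called (2.35 ± 0.866, adjusted p = 0.0553). It was called without adenocarcinoma replicate 1 (0.0353), 2 (0.0362) or 4 (0.0201).

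Mpo and the other primary granule genes showed no rise. Mpo encodes myeloperoxidase, which makes hypochlorous acid and whose message is made by marrow promyelocytes. Its probe set (10380174; chromosome 11, 87607083 to 87617914, plus strand) was at 7.1, 7.2, 7.3 and 7.1 in adenocarcinoma and at 7.5, 7.3, 7.6 and 7.4 in normal mucosa, so that the groups met at 7.3. Mpo fell by 0.28 ± 0.0955 (adjusted p = 0.0453), and 50.3% of all genes had a larger absolute difference. The call was lost after cyclic loess (0.421) and receptor gene centring (0.385), with a replicate block (0.0516) and with noise added to undo rounding (0.0514), and the adjusted p lay between 0.0776 and 0.117 without adenocarcinoma replicate 1, 2 or 4 or normal mucosa replicate 1, 3 or 4. Mpo's mean exceeded 73.1% of the intron control probe sets in adenocarcinoma and 70.9% in normal mucosa. The other 4 primary granule genes, none of them called, had differences between -0.28 and -0.15. The serine protease Prss57 (listed as Prssl1; -0.28, adjusted p = 0.0546) and neutrophil elastase, Elane (-0.23, adjusted p = 0.149), came nearest. None of the 5 genes was called higher in any of the 19 alternatives, and the number called lower ranged from 0 to 5, the highest after median centring, which moved the median of all genes to -0.24.

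The gelatinase granules and secretory vesicles hold proteases and adhesion receptors that are released on the way into tissue. Of 5 such genes, 3 rose and none fell (median 1.45), in each of the 19 alternatives. Itgam (CD11b, the adhesion receptor chain of neutrophils and macrophages) was at 9.4, 9.7, 9.6 and 9.7 in adenocarcinoma and at 7.5, 7.2, 7.6 and 7.3 in normal mucosa, a rise of 2.20 ± 0.117 (adjusted p = 2.98e-06). The gelatinase Mmp9 rose by 1.75 ± 0.235 (adjusted p = 0.000584) and the metal transporter Slc11a1, shared with macrophages, by 1.45 ± 0.236 (adjusted p = 0.00169). Cd177, a neutrophil surface protein, was at 10.5 in adenocarcinoma replicate 4, while the other tumours, at 7.9 to 8.5, overlapped the normal range of 8.1 to 8.4 (0.50, adjusted p = 0.431).

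All 3 measured receptors among the members rose, Cxcr2 and Csf3r with no overlap between the groups. Cxcr2 encodes the chemokine receptor that draws neutrophils along gradients of ELR-type CXC chemokines. It (probe set 10347291; chromosome 1, 74200568 to 74207820, plus strand) was at 8.4, 9.0, 9.0 and 8.9 in adenocarcinoma, against 5.8, 5.9, 6.2 and 6.4 in normal mucosa. The groups did not overlap, and 3 of the 4 normal arrays were at or below the median background probe, so the difference is limited by background. Cxcr2 rose by 2.75 ± 0.176 (6.73-fold; adjusted p = 8.26e-06), the smallest adjusted p of the 9 members.

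Csf3r encodes the receptor for G-CSF, the growth factor that drives neutrophil production and survival. It (probe set 10508074; chromosome 4, 125701980 to 125721683, plus strand) was at 8.2, 8.3, 8.8 and 9.0 in adenocarcinoma and at 7.5, 7.1, 7.3 and 7.2 in normal mucosa. The tumours again lay above all normal samples, replicates 3 and 4 highest. Csf3r rose by 1.30 ± 0.185 (2.46-fold; adjusted p = 0.000803). The rises of Cxcr2 and Csf3r were called in all 19 alternatives, with adjusted p of at most 0.000577 and 0.00938.

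Fpr1 encodes the high-affinity receptor for formylated bacterial peptides. Its probe set (10448124; chromosome 17, 18013433 to 18020903, minus strand) was at 6.8, 7.4, 7.8 and 8.7 in adenocarcinoma, against 6.9, 6.2, 6.8 and 6.7 in normal mucosa. Replicate 1 lay within the normal range and the other 3 tumours above it. Fpr1 rose by 1.03 ± 0.354 (2.04-fold; adjusted p = 0.0446). The call was lost after median centring (0.0541), with 32 intensity units added (0.0593), with trend and robust moderation (0.057) and with a replicate block (0.0641), and the adjusted p lay between 0.0563 and 0.106 without adenocarcinoma replicate 2, 3 or 4 or any 1 normal sample. Without replicate 4 the difference was 0.68.

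Of the 5 other receptors of this family with a probe set, none rose and 1, Fpr-rs3, was called lower. The probe set listed as Fpr3 was at 6.5, 7.0, 7.0 and 7.1 in adenocarcinoma and at 6.6, 6.4, 6.7 and 6.5 in normal mucosa (0.35 ± 0.140, adjusted p = 0.0713). It was called without adenocarcinoma replicate 1 (0.00697) and after cyclic loess (0.00927). This probe set has 43 probes, against 25 for Fpr1, and begins 3885 bases after the end of Fpr1 and ends 87738 bases after it. In RefSeq, Fpr2 begins 3885 bases and Fpr3 ends 87738 bases after the end of Fpr1, so the span of the probe set takes in both genes and its value may not be that of Fpr3 alone. Of the other 4 receptors, 3 (Fpr-rs4, Fpr-rs6 and Fpr-rs7) were at or below background on all 8 arrays. Fpr-rs3 was 0.33 lower (adjusted p = 0.0342), a call lost after cyclic loess (0.262) and receptor gene centring (0.177) and without adenocarcinoma replicate 2 or 4 or normal mucosa replicate 1, 3 or 4 (0.0544 to 0.0922).

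Of the 15 measured surface receptor genes, the 3 members included, 13 rose and 2 fell, and the count that rose was 10 to 13 when any 1 array was left out. Csf2rb, the signalling chain shared by the GM-CSF, interleukin-3 and interleukin-5 receptors, was at 9.4, 10.1, 10.8 and 9.9 in adenocarcinoma, against 8.2, 7.4, 7.8 and 8.1 in normal mucosa (2.18 ± 0.285, adjusted p = 0.000521). Trem1, which amplifies the response of neutrophils and monocytes to microbes, was at 7.2, 7.9, 9.4 and 9.1 in adenocarcinoma and at 6.6, 6.2, 6.9 and 6.2 in normal mucosa (1.93 ± 0.445, adjusted p = 0.00955). Both rises parted the groups, and replicate 1 was the lowest tumour in each case. Ly6g, the surface antigen that defines mouse neutrophils, was at 6.6, 7.1, 7.1 and 7.5 in adenocarcinoma, against 6.4, 6.5, 6.3 and 5.9 in normal mucosa, where 3 of 4 arrays were at or below background. Ly6g rose by 0.80 ± 0.196 (adjusted p = 0.0125), with all tumours above all normal samples. The genes that fell, named after their values were seen, were the chemokine receptor Cxcr1 (-0.45 ± 0.104, adjusted p = 0.00966; 0.0789 after receptor gene centring) and the leukotriene B4 receptor Ltb4r1 (-0.60 ± 0.1, adjusted p = 0.00193).

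**Figure D2:**
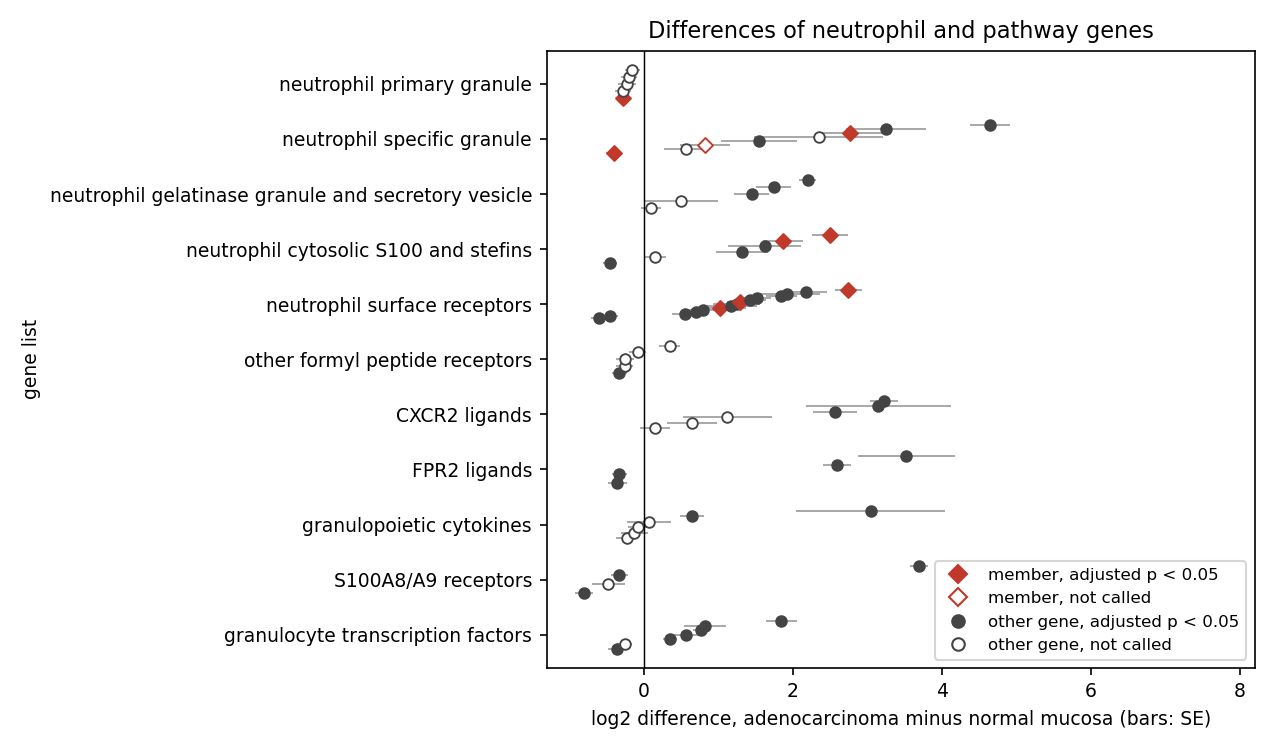
Log2 difference, adenocarcinoma minus normal mucosa, with the SE of the model (x axis), for every measured gene of the neutrophil and pathway lists (y axis), members as red diamonds and genes called by limma filled. Primary granule genes cluster between -0.28 and -0.15, while 13 of 15 surface receptor genes lie on the positive side and are filled.

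Among the 30 measured neutrophil genes of these lists that are no members, 18 rose (60%) and 3 fell (10%), against 18.2% and 23.6% of all genes, with a median of 1.21. The 3 that fell were Stfa3, Cxcr1 and Ltb4r1. These lists were drawn up with earlier results of these data known, and several of their genes, such as Itgam, Slc11a1, Csf2rb and Trem1, are also used by macrophages.

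Ligands of the member receptors moved unevenly. Of 6 chemokines listed as CXCR2 ligands, 3 rose and none fell. Cxcl15, 1 of the 6, was at or below background on 2 tumour arrays and all 4 normal arrays (0.15, adjusted p = 0.561). Cxcl5, an epithelial chemokine, was at 9.9, 10, 9.1 and 9.9 in adenocarcinoma, against 6.5, 6.4, 6.6 and 6.5 in normal mucosa (3.23 ± 0.187, adjusted p = 4.86e-06). Cxcl2, made by activated macrophages and neutrophils among other cells, was at 7.9, 7.5, 11.9 and 11.7 in adenocarcinoma and at 6.3, 6.5, 6.9 and 6.7 in normal mucosa. The tumours formed 2 levels for Cxcl2, replicates 3 and 4 high and replicates 1 and 2 low, while Cxcl5 was near level over the 4 tumours. Cxcl2 rose by 3.15 ± 0.971 (adjusted p = 0.0301), and the adjusted p was 0.0562 to 0.0726 without adenocarcinoma replicate 3 or 4 or any 1 normal sample. Ppbp, a platelet chemokine, rose by 2.58 ± 0.295 (adjusted p = 0.000245). Cxcl1 (0.65, adjusted p = 0.148) and Cxcl3 (1.13, adjusted p = 0.15) were not called, and in both replicates 3 and 4 were the highest tumours.

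Of 4 genes for FPR2 ligands, 2 rose and 2 fell. The phospholipid-binding protein Anxa1, which dampens neutrophil entry through that receptor, was at 11.7, 11.5, 12 and 12.4 in adenocarcinoma and at 9.4, 9.5, 9.1 and 9.2 in normal mucosa (2.60 ± 0.189, adjusted p = 1.83e-05). The acute-phase gene Saa3 was at 8.5, 9.6, 11.8 and 11.6 in adenocarcinoma, against 6.7, 6.9, 6.9 and 6.9 in normal mucosa (3.53 ± 0.652, adjusted p = 0.00332). Both parted the groups, and Saa3 again had its highest values in replicates 3 and 4. Saa1 and Saa2, which fell by 0.35 (adjusted p = 0.0479) and 0.33 (adjusted p = 0.0342), were at or below background on all 8 arrays, and 0 or 1 of them was called when any 1 array was left out.

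The cytokines that raise neutrophil output gave 2 rises among 6 genes. Il6 was at 5.4, 5.9, 9.9 and 9.8 in adenocarcinoma and at 5.1, 4.9, 4.4 and 4.4 in normal mucosa (3.05 ± 1, adjusted p = 0.0372), at or below background on all normal arrays and in tumour replicates 1 and 2. Its adjusted p was 0.067 to 0.0906 without adenocarcinoma replicate 3 or 4 or any 1 normal sample. Il23a, a subunit of the cytokine that sustains interleukin-17 producing cells, rose by 0.65 ± 0.159 (adjusted p = 0.0125). Csf3, which encodes the ligand of Csf3r and is named here after its values were seen, was at 7.4, 7.2, 7.8 and 7.7 in adenocarcinoma, against 7.5, 7.6, 7.6 and 7.7 in normal mucosa (-0.08 ± 0.136, adjusted p = 0.669). Its groups overlapped.

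Of 4 genes for receptors of the S100A8/S100A9 complex, 1 rose and 2 fell. Cd14, a lipopolysaccharide co-receptor of monocytes and neutrophils, rose by 3.70 ± 0.121 (adjusted p = 2.17e-07). Its values were 11.3, 11.6, 11.8 and 11.5 in adenocarcinoma and 7.8, 7.7, 7.9 and 8.0 in normal mucosa. The signalling receptor Tlr4 fell by 0.80 ± 0.125 (adjusted p = 0.00134), at 9.7 to 10 in adenocarcinoma, against 10.4 to 10.9 in normal mucosa. Ager was 0.33 lower (adjusted p = 0.0492), and the call was lost without any 1 of adenocarcinoma replicates 1, 2 and 3 and normal replicates 1, 3 and 4 (0.0669 to 0.126). It was also lost after cyclic loess (0.0562) and receptor gene centring (0.3), without the dimmest 30% of genes (0.0536) and with trend and robust moderation (0.0563).

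Of 7 transcription factor genes of granulocyte development, 5 rose and 1 fell. The PU.1 gene Spi1 (listed as Sfpi1), which macrophages also need, was at 8.6, 9.5, 9.2 and 9.4 in adenocarcinoma, against 7.7, 7.0, 7.3 and 7.3 in normal mucosa (1.85 ± 0.213, adjusted p = 0.000248). Cebpa, an early granulocyte factor, rose by 0.78 ± 0.111 (adjusted p = 0.000847). Cebpd rose by 0.83 ± 0.276 (adjusted p = 0.04), with adjusted p of 0.0626 to 0.0965 without any 1 normal sample. Cebpe, which the specific granule genes need, was 0.35 lower (adjusted p = 0.0479). This call was lost without adenocarcinoma replicate 1, 2 or 4 or normal mucosa replicate 1, 3 or 4 (0.0637 to 0.11) and after receptor gene centring (0.257). Over all 32 pathway genes, 13 rose (40.6%; 18.2% of all genes rose) and 6 fell (18.8%; 23.6% of all genes fell), with a median of 0.25.

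The 4 tumours did not share 1 profile. Replicate 3 was the highest tumour for 6 of the 9 members, ties included, and replicate 1 the lowest for 7. Against the mean of the normal samples, S100a8 differed by 1.75, 2.65, 2.95 and 2.65 in replicates 1 to 4, S100a9 by 1.43, 1.43, 2.63 and 2.03, and Fpr1 by 0.15, 0.75, 1.15 and 2.05. Ltf ran the other way, at 4.10, 2.50, 1.70 and 2.80. Replicates 1 and 4 exceeded all normal samples in 6 members, and replicates 2 and 3 in 7. Below all normal samples lay 2, 2, 1 and 2 members in replicates 1 to 4. Between the whole groups 34.3% of all genes did not overlap, and the share for single tumours is not given here. The haemoglobin gene Hbb-b1, a measure of blood in the tissue, differed by -1.58, 1.93, 2.63 and 2.13, so replicate 1 was also the tumour with the least of it; the part of blood content in the members' values was not tested. Replicate 1 also had the lowest exon minus intron value of the tumours, at 3.9, against 4.5, 4.2 and 4.4 in replicates 2 to 4. The part of array quality in the order of the tumours was not tested. With any 1 array left out, 5 to 6 of the 9 members rose. Of all 21626 genes, 2945 to 3966 rose in the same fits, against 3942 as deposited.

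**Figure D3:**
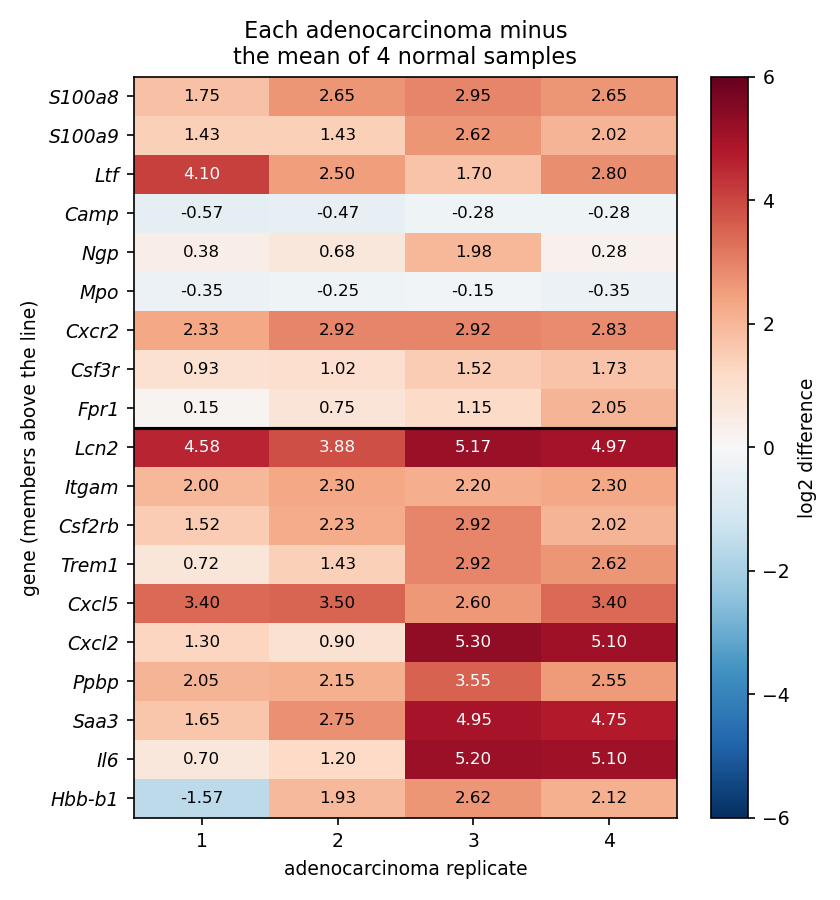
Log2 difference of each adenocarcinoma (x axis, replicates 1 to 4) from the mean of the 4 normal samples, for the 9 members above the line and for other neutrophil, ligand and blood genes below it, in colour and figures. Replicate 1 has the largest Ltf value (4.10) and the smallest S100a8 value (1.75), and Cxcl2, Saa3 and Il6 are largest in replicates 3 and 4.

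Of the marker lists of other cells, only that of macrophages and monocytes rose in most of its genes. Of 11 macrophage and monocyte genes, 10 rose and none fell (median 2.55), and their summed level on the log2 scale ran from 13.42 to 14.05 in adenocarcinoma, against 11.11 to 11.24 in normal mucosa. The defining macrophage genes Csf1r (2.75 ± 0.114), C1qb (3.80 ± 0.153) and Emr1 (3.18 ± 0.326) were called in all 19 alternatives. The surface receptor list summed to between 11.91 and 12.79 in adenocarcinoma, against 11.0 to 11.26 in normal mucosa. Monocytes also use S100a8, S100a9, Csf3r and Fpr1. The part of monocytes and macrophages in the members' rises was not tested. Of 7 eosinophil genes, 1 (Ear1; 0.75, adjusted p = 0.0289) rose and none fell; without adenocarcinoma replicate 2 or any 1 normal sample its adjusted p was 0.0525 to 0.0758. Of the defining genes, Epx (-0.33, adjusted p = 0.0804) and Prg2 (-0.28, adjusted p = 0.0784) were not called. The sum of all 7 eosinophil genes lay between 9.92 and 10.21 in adenocarcinoma, against 9.9 to 10.24 in normal mucosa.

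S100a8 and S100a9 are also made by stressed squamous epithelium, which lines the mouse forestomach. Of 10 squamous genes, 1 rose and 3 fell, and their sum lay between 10.96 and 12.88 in adenocarcinoma, against 10.81 to 11.34 in normal mucosa. The defining keratins Krt5 (-0.40, adjusted p = 0.2) and Krt14 (-0.30, adjusted p = 0.106) were not called, and Trp63 fell by 0.33 (adjusted p = 0.0173; 0.15 after cyclic loess and 0.26 after receptor gene centring). The gene that rose, involucrin (Ivl; adjusted p = 0.0201, and 0.0521 without normal mucosa replicate 3), was at 10.1, 11.1, 8.4 and 8.7 in adenocarcinoma, against 7.5 to 7.8 in normal mucosa. Krt4, a keratin of stratified squamous epithelium, was at 10.7, 11.6, 8.8 and 7.5 in adenocarcinoma, against 7.6 to 7.8 in normal mucosa (1.93, adjusted p = 0.0665), and was called with array weights (0.0181) and without adenocarcinoma replicate 4 (0.00694). The cornified envelope gene Lor (0.98, adjusted p = 0.194) and the desmosome gene Dsg3 (0.45, adjusted p = 0.0836) were not called, Dsg3 being called without adenocarcinoma replicate 3 (0.0189), after cyclic loess (0.0255) and after receptor gene centring (0.0371). Krt4, Lor and Dsg3 were named after their values were seen. The part of squamous epithelium in the rises of S100a8 and S100a9 was not tested. Gastric gland genes, of which 7 of 9 fell and none rose, summed to between 13.71 and 15.51 in adenocarcinoma, against 16.93 to 17.08 in normal mucosa. Mast cell genes gave 1 fall and no rise in 9, T cell genes 1 fall and no rise in 8, B cell genes 1 rise and no fall in 6 (0 to 3 rises with any 1 array left out), and erythroid genes no call in 6. The erythroid sum ran from 10.42 to 14.06 in adenocarcinoma, against 11.33 to 12.13 in normal mucosa, and 3 erythroid genes were called higher without adenocarcinoma replicate 1.

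**Figure D4:**
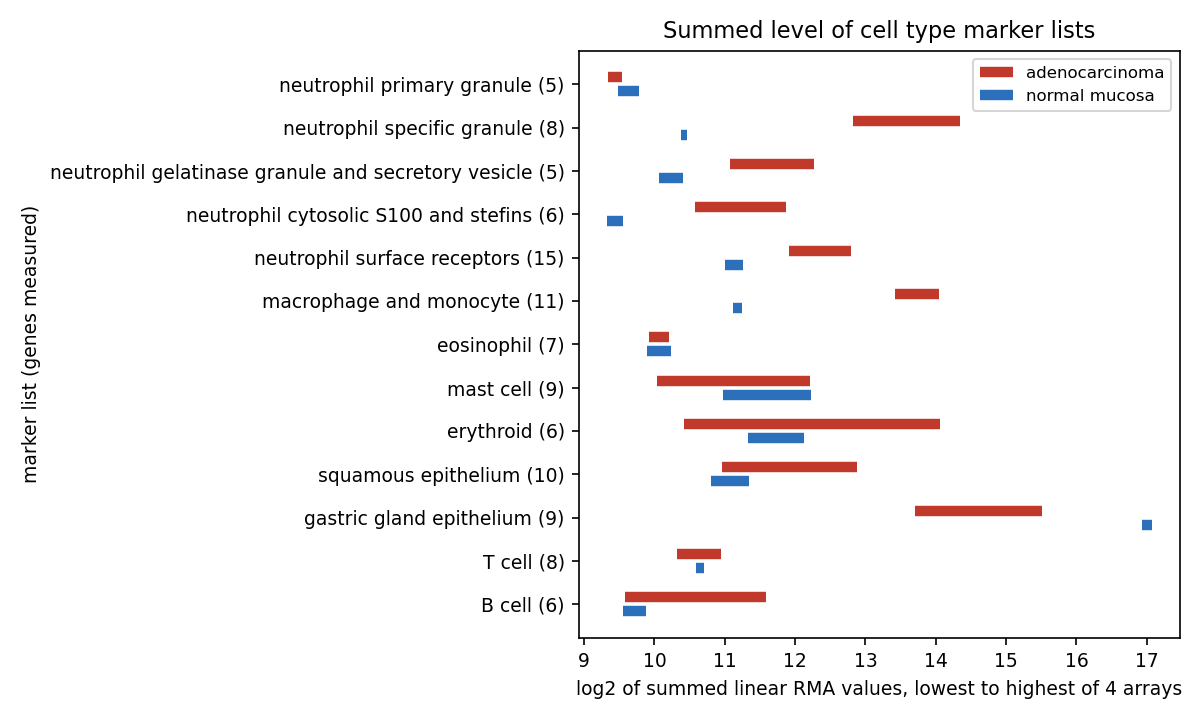
Log2 of the summed linear RMA values of each marker list (y axis, number of genes in brackets), drawn from the lowest to the highest of the 4 arrays of each group, adenocarcinoma in red above normal mucosa in blue. Macrophage and monocyte genes lie at 13.42 to 14.05 in adenocarcinoma against 11.11 to 11.24 in normal mucosa, and eosinophil genes overlap.

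Genes outside the set with the most similar profile over the 8 arrays were taken by the root mean square difference of deviations from each gene's own mean. Nearest to S100a8 were Tm4sf1 (0.15), Ednra (0.194) and Fkbp10 (0.2), which rose by 2.63, 2.25 and 2.63. Nearest to Csf3r were Rnf157 (0.109), Fbxo21 (0.145) and Htr2b (0.145), which rose by 1.30, 1.23 and 1.33. Nearest to Camp were Fam178b (0.0331), Zscan5b (0.0331) and 1700001K19Rik (0.0433), with falls of 0.38, 0.43 and 0.35. The likeness rests mainly on the difference between the groups, which these genes share.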

How the data were processed

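Biotin-labelled total RNA of 8 mouse stomach samples, prepared with a Qiagen kit per the labels, was hybridised to Affymetrix arrays. The authors deposited log2 expression values made with RMA, per the submitters' processing notes. RMA's version is not stated there. The values were rounded to 1 decimal in all 284448 cases (tolerance 1e-06). Both deposited tables were compared and had 0 differences. Of 28350 gene probe sets, 24975 carried 1 symbol, and for each of 21626 genes the brightest probe set over the 8 arrays was kept, with no filter. Precision is limited by the number of arrays (4 in each group).

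Groups were compared with limma 3.58.1 in R 4.3.3 (lmFit, eBayes, two-sided) with Benjamini-Hochberg adjustment over all 21626 genes, called at an adjusted p under 0.05. Summed levels are log2 of summed linear values. Named genes were the members, up to 3 called and 2 uncalled genes per neutrophil or pathway list, defining genes of other cell types, and the 3 nearest profiles to S100a8, Csf3r and Camp. The called genes were those of largest absolute difference and the uncalled ones those of smallest p. They were thus picked by their values, and so were up to 2 called genes per list of another cell type. The members and lists were chosen with earlier results of these data known. Alternatives were median centring, cyclic loess, centring on 1341 olfactory and vomeronasal receptor genes, 32 intensity units added before log2, a filter on the dimmest 30% of genes, averaged probe sets, trended and robust eBayes, array weights, a replicate block, each array left out, noise of plus or minus 0.05, and a threshold of 0.01. On simulated data for 21626 genes the code recovered 26.9% of 67 changes of 0.5, 76.1% of 67 changes of 1 and 95.5% of 66 changes of 2 on the log2 scale. Only 200 genes were changed there, whereas 41.8% of all genes were called in the deposited data. The adjusted p depends on that share, so these recoveries may not hold for the real comparison. Figures were drawn with Python 3.11.15 and matplotlib 3.10.9.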

Additional observations from a re-analysis of the deposited data

Results flagged for a closer look

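Cxcr2 in adenocarcinoma replicate 1, at 8.4, lay far from the other 3 adenocarcinomas, which were at 8.9 to 9.0: its gap to the nearest was a larger part of the group's range than Dixon's 95% critical value for 4 samples. Chance gives about 1 such value in 20 groups, and both groups of each of the 9 measured members were examined. The values are rounded to 1 decimal, which makes gaps of this size coarse. Cxcr2 kept its call in all 19 alternatives, this array left out among them (limma adjusted p up to 0.000577).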

How the results depend on the processing

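Over 19 alternatives, S100a8, S100a9, Ltf, Cxcr2 and Csf3r kept their direction and their call, and no member changed direction; of 168 single values 140 kept their side of the threshold, 26 lost a call (Camp, Mpo and Fpr1) and 2 gained one (Ngp). The members that rose numbered 5 to 7, and 5 to 6 when any 1 array was left out. The members that fell, 2 as deposited, were 1 after cyclic loess, 0 after receptor gene centring, 1 without the dimmest 30% of genes (where 6 of the 9 members were left), 1 with a replicate block, 1 with added noise, 0 at a threshold of 0.01, and 0 to 2 when 1 array was left out. Of the other neutrophil genes, 10 rose at the threshold of 0.01, and 7 fell after median centring and 5 with array weights; with 1 array left out, 14 to 19 rose and 3 to 5 fell. Of the pathway genes, 7 rose and 1 fell at 0.01, 10 fell after median centring, and 1 fell after cyclic loess, receptor gene centring or without the dimmest genes; with 1 array left out, 8 to 14 rose and 1 to 7 fell. The counts of all genes moved too. Over the 19 alternatives 2376 to 4796 of all genes rose, against 3942 as deposited, and 1700 to 9272 fell, against 5099. The fewest falls came after receptor gene centring and the most after median centring. With 1 array left out, 2945 to 3966 of all genes rose and 2975 to 5456 fell. The scalings placed the median of all genes at -0.24 (median centring), -0.01 (cyclic loess) and 0.05 (receptor genes), against -0.10 as deposited. At the threshold of 0.01, fewer calls follow from the threshold itself; elsewhere the cause was not tested. Samples with the same replicate number deviated from their group means with correlations of -0.175, 0.0949, 0.158 and 0.0376 over genes. The labels do not say whether equal numbers mark paired samples. These correlations have no reference values beside them and cannot decide it, so the replicate block is only an alternative setting. Values at or below the background probes, as for Cxcr2 in normal mucosa, are limited by background. The files hold no batch label, and none was tested.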
